A study of Homo sapiens with 6 samples.

Results

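The metallothionein genes MT2A, MT1E, MT1M, MT1A, MT1F, MT1G, MT1H and MT1X were followed through the RNA polymerase II ChIP-seq of HepG2 cells. The 8 genes were chosen by name, and every region whose assigned gene symbol was one of them was taken from the 4 deposited region lists, whatever its size. They accounted for 36 of 271336 regions. RPB1, the largest subunit of RNA polymerase II, and RPB1 phosphorylated at Ser2 of its C-terminal repeats (pSer2) were each precipitated from untreated HepG2 cells, a human hepatoma line, that were either a CRISPR control (SHP-1 WT) or a CRISPR knockout of the phosphatase SHP-1 (SHP-1 KO). In the paper, control cells were left untransfected or received a nontargeting guide, and KO cells received guides against exons of the phosphatase domain. Transfected cells were selected with puromycin and grown from single cells. The paper does not say which control was sequenced as WT, and the labels do not say which guide or clone was sequenced. There was 1 library per antibody and cell type, so a difference between the KO and WT cells has no replicate check, and it cannot be told apart from a difference between clones or between precipitations.

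Metallothioneins are small cysteine-rich proteins that bind zinc, copper and cadmium and buffer the free metal of the cell. In liver cells their genes are switched on by zinc and cadmium through the transcription factor MTF1, which binds short metal response elements (MREs) close to the start sites, and glucocorticoids and inflammatory signals also raise them. RNA polymerase II that has just started a transcript carries little Ser2 phosphate, and the mark builds up as the polymerase moves into the gene and past its end.

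The genes lay in 1 cluster on chromosome 16 (hg38), from 56608584 to 56684196, a stretch of 75.6 kb that other metallothionein genes and pseudogenes share. In order from MT2A at the left end, MT1E, MT1M, MT1A, MT1F, MT1G, MT1H and MT1X followed, and all were read from the plus strand except MT1G. Promoter sequences of MT2A, MT1H and MT1X were at hand in RefSeq (GRCh38.p14), and the 250 bases before each start are printed because they span the strongest RPB1 member, a strong one and one with no region. The MRE cores TGCACNC and TGCGCNC, searched on both strands, are in capitals, and on the opposite strand they read as GNGTGCA and GNGCGCA. MT1A, MT1E, MT1F, MT1G and MT1M were not analysed for this feature. The MT2A window was chr16:56608334-56608583, the MT1H window chr16:56669564-56669813 and the MT1X window chr16:56682220-56682469, all on the plus strand.
MT2A: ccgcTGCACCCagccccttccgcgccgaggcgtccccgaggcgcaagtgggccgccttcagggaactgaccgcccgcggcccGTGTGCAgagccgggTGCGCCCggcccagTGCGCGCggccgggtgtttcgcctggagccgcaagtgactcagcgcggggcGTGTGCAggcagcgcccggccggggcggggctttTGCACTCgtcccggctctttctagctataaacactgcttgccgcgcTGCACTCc
MT1H: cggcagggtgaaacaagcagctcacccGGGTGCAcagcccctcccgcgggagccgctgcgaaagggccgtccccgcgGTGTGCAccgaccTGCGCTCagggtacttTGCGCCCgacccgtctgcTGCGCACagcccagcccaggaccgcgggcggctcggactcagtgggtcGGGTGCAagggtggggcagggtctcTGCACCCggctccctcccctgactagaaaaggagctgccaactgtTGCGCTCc
MT1X: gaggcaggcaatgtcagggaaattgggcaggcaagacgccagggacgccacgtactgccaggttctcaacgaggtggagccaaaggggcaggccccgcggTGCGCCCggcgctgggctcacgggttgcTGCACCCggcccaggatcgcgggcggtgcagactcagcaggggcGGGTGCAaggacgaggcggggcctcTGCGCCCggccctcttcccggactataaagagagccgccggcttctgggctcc

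MT2A held 7 cores, of which 5 were on the strand of the gene, and 0.0313% of the 35116 RefSeq promoters held as many. MT1H held 8, a number reached by 0.0171% of promoters. MT1X held 4, reached by 0.370%. At least 1 core was present in 24.8% of all promoters, so the letters are common alone and rare in these numbers. The windows were rich in G and C, with 73.2% in MT2A, 70.4% in MT1H and 70.0% in MT1X. A match is a description of the letters and not a measured binding site.

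The RPB1 list of WT cells held 46045 regions, of which 12 belonged to metallothionein genes, and the RPB1 list of KO cells held 41605, of which 10 did. The pSer2 lists were longer, with 102674 regions in WT and 81012 in KO cells, of which 8 and 6 belonged to these genes. RPB1 regions were assigned to 6 of the 8 genes in WT and in KO cells, namely MT2A, MT1E, MT1A, MT1F, MT1G and MT1X. pSer2 regions were assigned to 4 in both, namely MT2A, MT1E, MT1G and MT1X. Of the 16428 genes named in any list, 86.2% had a region in the RPB1 list of WT cells, 81.9% in that of KO cells, 77.6% in the pSer2 list of WT cells and 69.6% in that of KO cells. MT1H and MT1M had none in the 4 lists, and MT1A and MT1F had RPB1 regions alone. Which genes had a region was the same in WT and KO cells for each antibody.

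Fold enrichment, the unit used from here on, is the signal at the summit of a region divided by the background expected from the input, and each gene is represented by its highest region unless stated otherwise. For RPB1 in WT cells, MT2A reached 78.3-fold and MT1E 70.8-fold. MT1X followed at 55.7-fold and MT1G at 43.8-fold, and the weaker pair was MT1F at 16.6-fold and MT1A at 9.81-fold. The spread among the 6 genes was wide although they are close copies, and the order did not follow their order on the chromosome. MT2A ranked 215 among the 46045 regions and MT1E 390, whereas MT1F ranked 9627 and MT1A 13022. In KO cells the RPB1 values were 55.1 for MT2A, 35.5 for MT1X, 33.3 for MT1E, 22.3 for MT1G, 9.91 for MT1F and 5.02 for MT1A. MT2A again led at rank 422 of 41605, and MT1E and MT1X exchanged places.

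**Figure D1:**
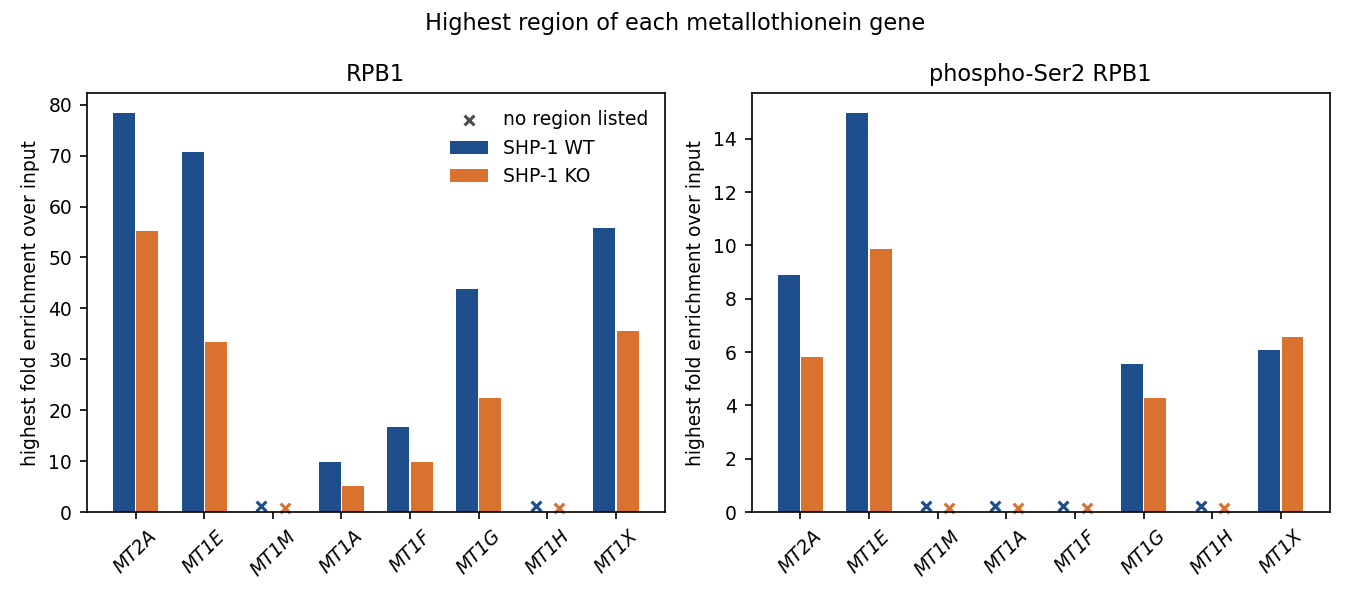
Highest fold enrichment over input of each metallothionein gene (vertical axis, linear from 0) for RPB1 (left) and pSer2 (right), with 1 bar per library and the genes in chromosome order, and a cross marks a gene with no region in that list. MT2A leads for RPB1 in both cell types and MT1E for pSer2, and MT1M and MT1H have crosses throughout.

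The pSer2 values ran lower and in another order. MT1E led in WT cells at 14.95-fold, ahead of MT2A at 8.90, MT1X at 6.08 and MT1G at 5.53. In KO cells MT1E was at 9.88, MT1X at 6.55, MT2A at 5.82 and MT1G at 4.26. MT1E was thus first in both pSer2 lists, where it ranked 598 of 102674 regions in WT and 1792 of 81012 in KO cells, while MT2A was first in both RPB1 lists. Because the antibodies differ in their range, the place of a gene among the highest regions of all genes in the list, as a percentile, was compared as well. In WT cells MT2A stood at 98.5 for RPB1 and at 81.9 for pSer2, and MT1E at 97.3 and 95.7. MT1X stood at 91.8 and 57.6, and MT1G at 82.3 and 49.3. The pSer2 percentile was below the RPB1 percentile for all 4 genes in WT cells, by 1.58 points for MT1E and by 34.2 points for MT1X. In KO cells it was again lower for MT2A, MT1G and MT1X, and for MT1E it was higher by 3.32 points. For how many of all genes the pSer2 percentile was the lower was not counted. A lower pSer2 place is therefore not shown to be particular to the metallothionein genes.

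The highest regions sat on the start sites or just upstream. In WT cells the RPB1 regions were chr16:56606779-56609276 at MT2A, chr16:56624846-56626608 at MT1E, chr16:56638281-56638825 at MT1A, chr16:56657386-56658491 at MT1F, chr16:56667452-56668518 at MT1G and chr16:56681785-56683152 at MT1X. The summits of the RPB1 regions of MT1E, MT1G and MT1X lay between 24 and 40 bp downstream of the start of the MANE Select transcript, within exon 1 and its 5′ UTR, in WT and KO cells. MT2A differed from these genes, with its RPB1 summit upstream of the start, at −148 bp in WT cells and −159 bp in KO cells. Both positions fall within the printed MT2A window, near the pair of TGCGCNC cores that begin at −153 and −139 bp. The MT2A transcript used in the lists starts elsewhere, so the MT2A distances hold for the MANE Select start. MT1A had its summit at −235 bp in WT and −211 bp in KO cells, and MT1F, which has transcripts that start further upstream, at −72 and −246 bp. With pSer2, the MT2A summit was downstream of the start instead, at 110 bp in intron 1 in WT cells and at 72 bp in the coding part of exon 1 in KO cells. The pSer2 summits of MT1E, MT1G and MT1X lay 28 to 53 bp downstream, close to those of RPB1.

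**Figure D2:**
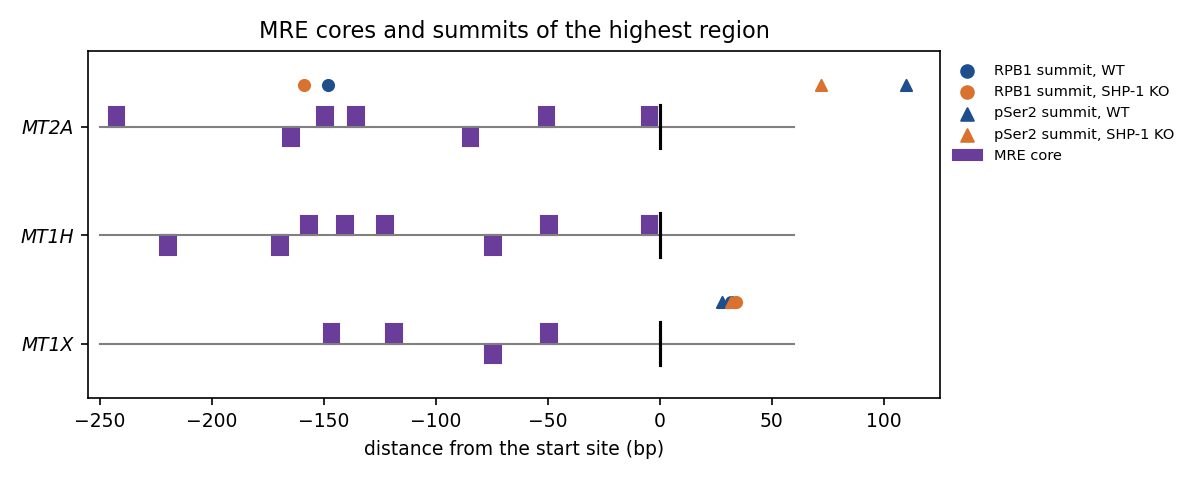
Position of the MRE cores (purple; above the line on the strand of the gene, below it on the other strand) and of the summits of the highest region (circles, RPB1; triangles, pSer2; blue, WT; orange, SHP-1 KO) against the distance from the start site in bp. The RPB1 summits of MT2A lie among its 7 cores, those of MT1X lie just downstream of the start, and MT1H has 8 cores and no summit.

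Past the start sites the same genes had weaker regions. In the RPB1 list of WT cells the 6 regions other than the highest ranged from 4.11- to 5.21-fold, with summits 1081 to 2726 bp downstream of the start, against 9.81 to 78.3 for the highest ones. Of these, one lay in the 3′ UTR of MT1E at 4.11-fold and one in the 3′ UTR of MT1F at 4.31-fold. The region past the end of MT2A, at 4.53-fold, lay mostly over a lncRNA gene annotated on the minus strand (ENSG00000260823). Both regions past the end of MT1X, at 5.09 and 4.76, lay within a lncRNA gene on the plus strand (ENSG00000259827) that shares its start with MT1X. ChIP reads carry no strand of transcription, so polymerase on these lncRNA genes and polymerase running on from the metallothionein gene cannot be told apart. In the pSer2 list of WT cells, regions past the gene end were found at MT2A (2.54), MT1E (2.90) and MT1X (2.97), at the same 3 genes that had RPB1 regions there. In KO cells the regions other than the highest were 4 for RPB1, from 3.44 to 6.45, and 2 for pSer2, at 2.78 and 3.26. MT1G and MT1A had no second region in any list.

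**Figure D3:**
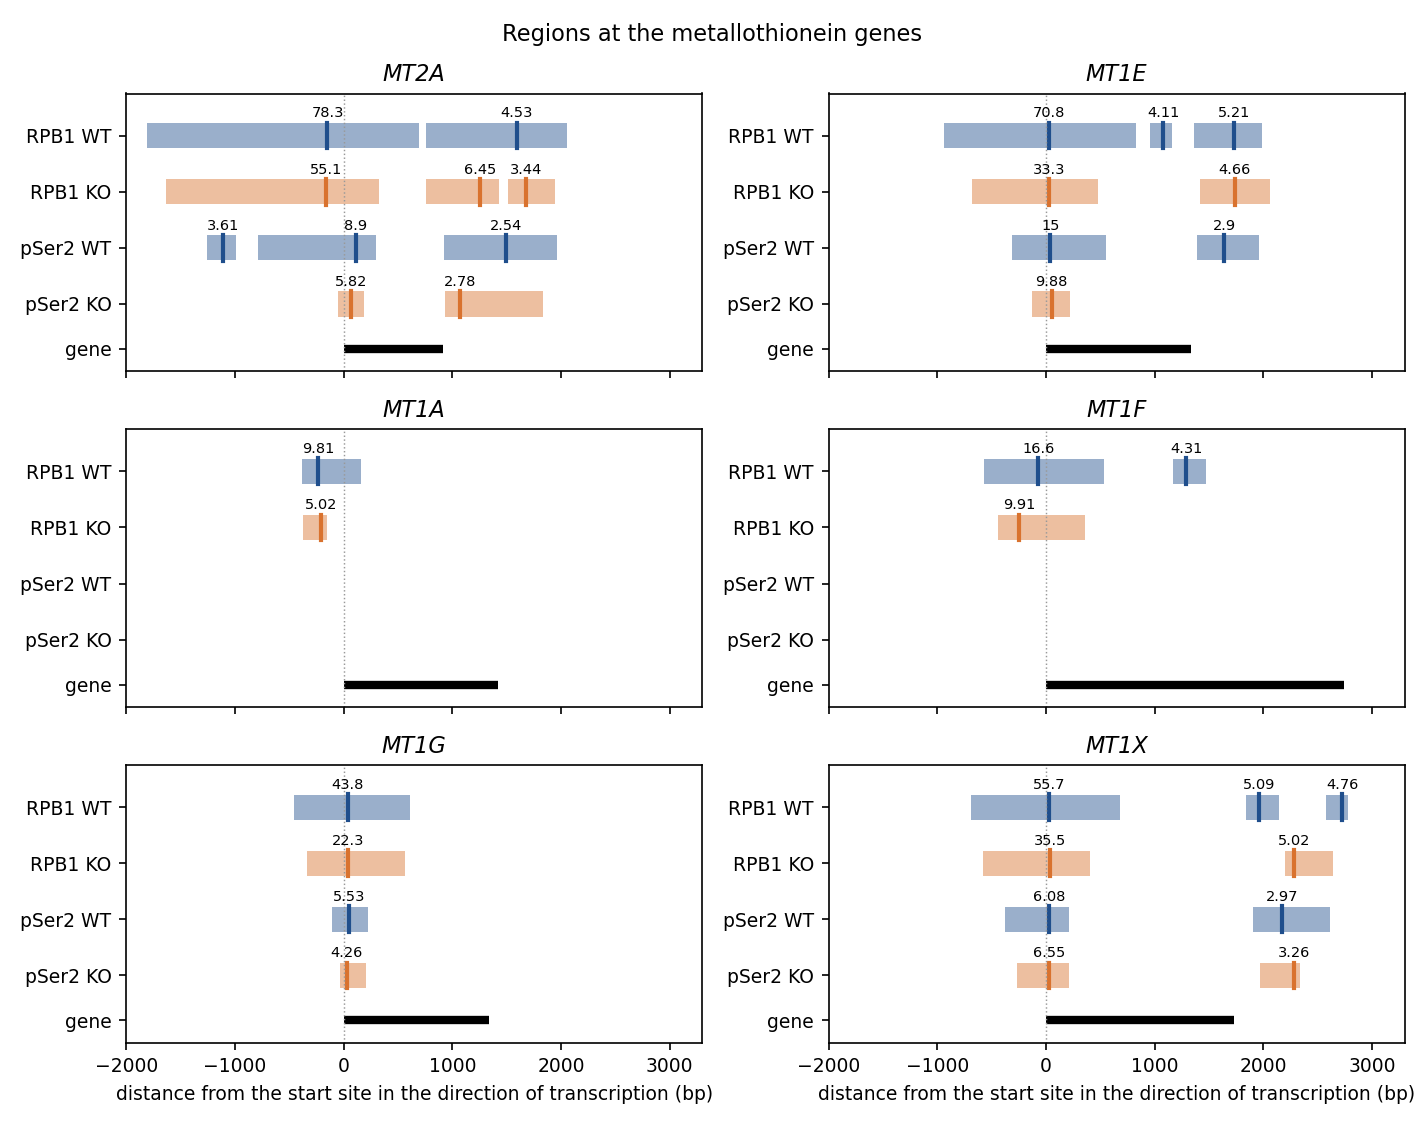
Regions of the 6 genes that had any, drawn as bars against the distance from the start site in bp in the direction of transcription, with a thick tick at the summit and the fold enrichment above each bar; the black bar is the gene from the start of its MANE Select transcript to its annotated end. The strong regions lie over the start and the weak ones mostly beyond the gene, and the KO bars at the starts are shorter than the WT bars.

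The comparison of KO with WT cells asks whether polymerase occupancy changes without SHP-1. For RPB1 all 6 metallothionein genes had a lower highest fold enrichment in KO cells, by a KO to WT ratio of 0.471 for MT1E, 0.510 for MT1G, 0.511 for MT1A, 0.596 for MT1F, 0.638 for MT1X and 0.704 for MT2A. On the log2 scale these are −1.09, −0.97, −0.97, −0.75, −0.65 and −0.51, with a median ratio of 0.554. This has to be read against the whole list, in which RPB1 was lower in KO cells at most genes. The median ratio over the 12877 genes with a region in both lists was 0.742, which is −0.43 on the log2 scale, with 5% of genes below 0.432 and 5% above 1.33. Of the metallothionein genes, 5 of 6 were at least 1.5-fold lower and 0 of 6 at least 1.5-fold higher, where 36.1% of all genes were lower and 2.68% higher by that much. A ratio as low as that of MT1E was found in 7.54% of genes, as low as that of MT1G in 11.3% and as low as that of MT1A in 11.4%. MT1F, MT1X and MT2A were nearer the middle, with 23.6%, 30.7% and 43.2% of genes as low. All 6 therefore lay below the median of all genes, and none lay beyond its lowest 5%. Relative to that median, the ratio was 0.634 for MT1E, 0.687 for MT1G, 0.689 for MT1A, 0.804 for MT1F, 0.859 for MT1X and 0.949 for MT2A. On this relative scale 1 of 6, MT1E, was at least 1.5-fold lower, where 9.64% of all genes were. The other 4 of the 5 were no longer past 1.5-fold once the shift of all genes was taken out.

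**Figure D4:**
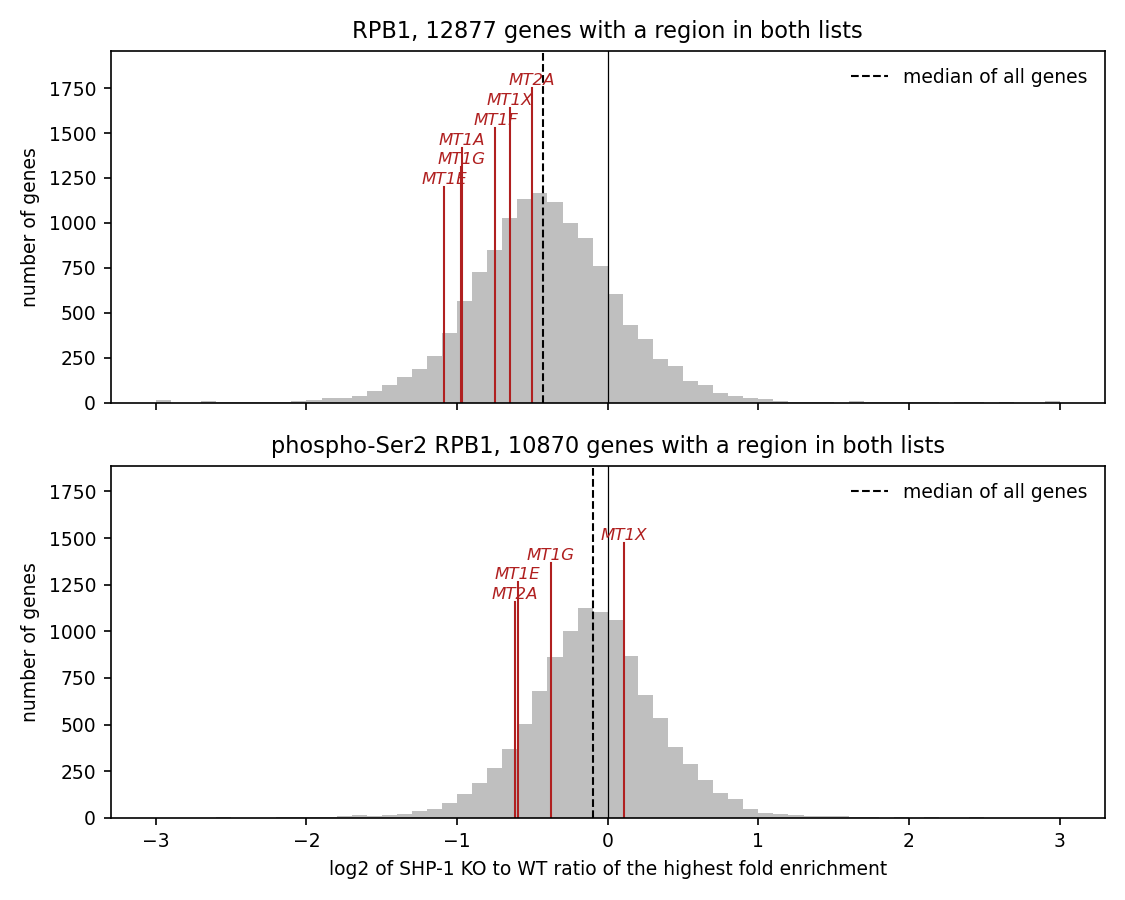
Distribution over all genes of the log2 ratio of the highest fold enrichment in SHP-1 KO to WT cells (grey bars, number of genes per 0.1; values beyond 3 either way are in the end bars), with the metallothionein genes as red lines. For RPB1 (top) the 6 lines lie left of the dashed median of all genes, and for pSer2 (bottom) MT2A, MT1E and MT1G lie left of it and MT1X lies right.

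For pSer2 the picture was mixed, and both antibodies were set against the same input in each cell type, so their ratios share it. MT2A had a ratio of 0.653, MT1E 0.661, MT1G 0.770 and MT1X 1.08, which is −0.61, −0.60, −0.38 and 0.11 on the log2 scale. Here the median of all 10870 genes was 0.936, close to no change, and 11.7% of genes were at least 1.5-fold lower and 5.71% at least 1.5-fold higher. Of the metallothionein genes 2 of 4 were lower by that much and 0 of 4 higher. A ratio as low as that of MT2A was found in 10.6% of genes, as low as that of MT1E in 11.2% and as low as that of MT1G in 24.0%. For MT1X the share was 70.1%. Relative to the median, 0 of 4 were at least 1.5-fold lower, where 8.35% of all genes were, with MT2A at 0.698 and MT1E at 0.706. MT1X, with RPB1 at 0.638 and pSer2 at 1.08, was the member whose values went in opposite directions.

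MT2A, MT1E and MT1X are among the stronger genes of the RPB1 lists, so the background was also taken, after the data were seen, over genes with a geometric mean of WT and KO values of at least 10. For RPB1 this left 10113 genes with a median ratio of 0.718, of which 39.4% were at least 1.5-fold lower. For pSer2 it left 1475 genes with a median of 0.929, of which 14.4% were lower. MT1A did not reach this mean for RPB1, and MT2A, MT1G and MT1X did not for pSer2. The pSer2 background is therefore matched in level to MT1E alone, and 13.9% of its genes had a ratio as low as that of MT1E. Both shares were close to those over all genes.

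At the weaker regions the ratios were higher than at the highest ones. Of the 6 weaker RPB1 regions of WT cells, 3 were overlapped by a KO region, and their ratios were 1.43 past the end of MT2A, 1.05 past the end of MT1X and 0.894 past the end of MT1E. For pSer2 the ratio was 1.09 past the end of MT2A and 1.09 past the end of MT1X. At the highest RPB1 regions of the same 3 genes the ratios were 0.704, 0.638 and 0.471. Over all overlapping RPB1 regions the median ratio was 0.724 in the 12457 pairs whose WT region was the highest of its gene and 0.998 in the 16038 others. For pSer2 it was 0.843 in 9147 pairs and 1.04 in the 44437 others. The split uses the WT values themselves, so it is a description. Split by the authors' promoter class, which includes the region past the end of MT2A, the RPB1 medians were 0.773 inside and 0.978 outside it, and the pSer2 medians were 0.997 and 1.01. These weak values are near the calling threshold, where regions that are lower in KO cells go unlisted, so pairs with a low ratio are missing from them.

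**Figure D5:**
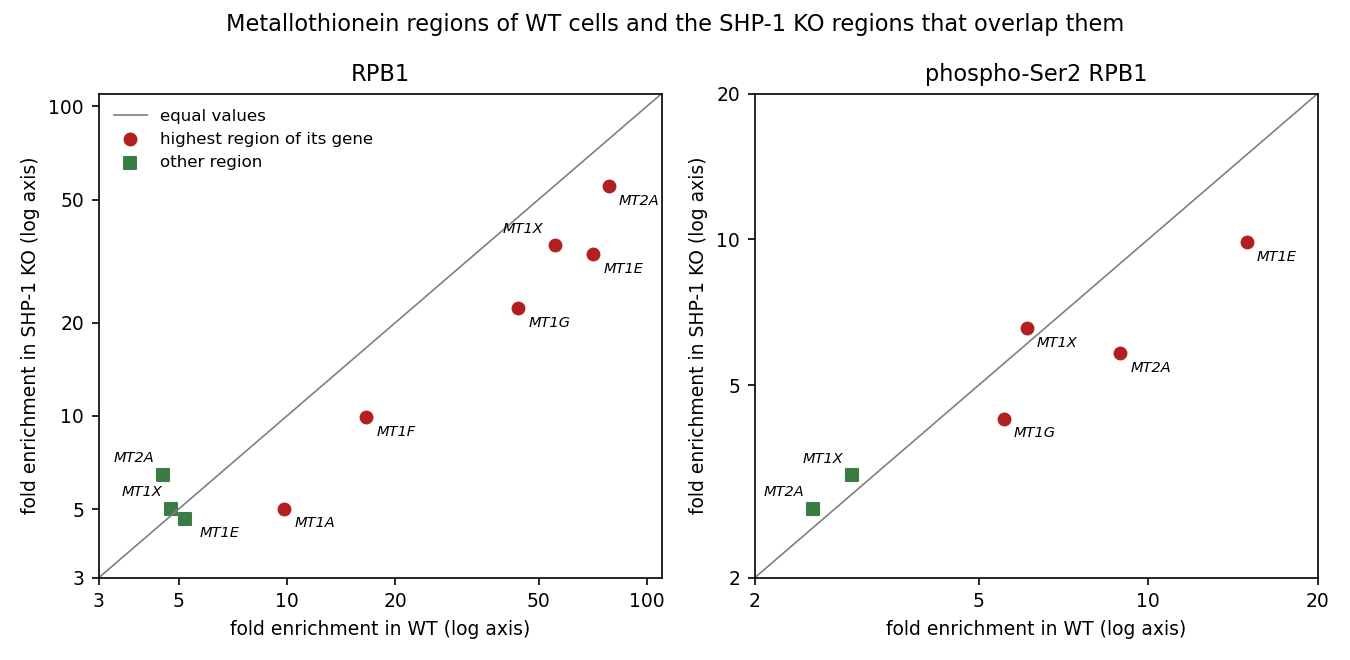
Fold enrichment in WT cells (horizontal) against that of the overlapping region in SHP-1 KO cells (vertical), on log axes, for RPB1 (left) and pSer2 (right); red circles are the highest region of a gene, green squares the other regions, and the line marks equal values. All 6 RPB1 circles lie below the line, and the squares of MT2A and MT1X lie above it for both antibodies.

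By presence, 9 of the 12 RPB1 regions of WT cells at the metallothionein genes were overlapped by a KO region, which is 75.0% (95% Wilson interval 46.8 to 91.1, counting error only), and 61.9% of all WT regions were. For pSer2 it was 6 of 8, also 75.0% (40.9 to 92.9), and 52.2% of all. The RPB1 regions without a counterpart were the 3′ UTR regions of MT1E and MT1F and the nearer of the regions past MT1X. The pSer2 regions without one were an upstream region of MT2A at 3.61-fold, with its summit at −1106 bp, and the region past MT1E at 2.90-fold. These 5 ranged from 2.90- to 5.09-fold, and the intervals include the share over all regions. With a reciprocal overlap of at least 50% it was 7 of 12 for RPB1, where 40.1% of all WT regions passed, and 4 of 8 for pSer2, where 26% did. Every highest region of WT cells was overlapped by a KO region by at least 1 bp.

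The regions at the starts were also narrower in KO cells. The RPB1 region of MT2A spanned 2498 bp in WT and 1958 bp in KO cells, and that of MT1E 1763 and 1157 bp. MT1X went from 1368 to 984 bp, MT1F from 1106 to 802, MT1G from 1067 to 909 and MT1A from 545 to 221. The pSer2 region of MT2A spanned 1085 and 240 bp, that of MT1E 867 and 346 bp, that of MT1G 332 and 240 bp and that of MT1X 583 and 477 bp. All 10 were shorter in KO cells, also that of MT1X for pSer2, whose fold enrichment was not lower. Over all genes the highest region was shorter in KO cells at 70.2% for RPB1, where 6 of 6 metallothionein genes were, and at 61% for pSer2, where 4 of 4 were. The median KO to WT ratio of length was 0.722 for these genes and 0.884 for all genes with RPB1, and 0.561 and 0.888 with pSer2. The length of a called region depends on depth, which the lists do not give.

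MT1H and MT1M are the members that had no region, and their surroundings were looked at for one. The start of MT1H lay 1296 bp beyond the edge of the RPB1 region of MT1G in WT cells, whose summit was 1786 bp away, and 1408 bp beyond its edge in KO cells. For MT1M the nearest RPB1 region was the one past the end of MT1E, 4893 bp away in WT and 4818 bp in KO cells. In the pSer2 lists the nearest region to MT1M was 4919 bp away in WT and 6658 bp in KO cells. So MT1H, with the most MRE cores of the 3 printed windows, and MT1M had no called enrichment at their own starts. An unlisted gene is one below the calling threshold, which is not the same as one without polymerase.

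Since these genes are close copies of each other and the reads were 50 bases long, it was counted how often a read could have come from several places. Of the 25765 positions in the 36 regions where a 50-base read fits, 98.8% had a sequence found once in hg38. A position in the regions of several lists was counted once for each list. In the regions of the genes beside the cluster, of which SLC12A3 had none, it was 96.6%. Within 500 bp of the MANE Select start the share was 100% for MT2A, MT1E, MT1A, MT1F and MT1X, 99.7% for MT1G and MT1H and 95.3% for MT1M. Reads with mismatches were not considered in this count.

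The other metallothionein genes named in the genome were examined by symbol. MT1B, which lies between MT1A and MT1F, MT3 and MT4, the brain and epithelial forms, MT1HL1 and the pseudogenes MT1L, MT1DP, MT1IP, MT1JP, MT1CP, MT1P1 and MT1P3 had 0 regions in the 4 lists. Of the RefSeq windows at hand, MT1B and MT4 held 3 MRE cores each, and 1.58% of promoters held at least 3. Beside the cluster, RPB1 went from 81.9 to 61.5 at HERPUD1, an endoplasmic reticulum stress gene, from 29.6 to 27.2 at BBS2, from 30.0 to 17.8 at NUDT21, an RNA processing factor, and from 21.3 to 14.2 at NUP93, a nuclear pore subunit. These 4 had a median ratio of 0.710. OGFOD1 had RPB1 regions assigned to it in KO cells alone, with a highest value of 5.62, and SLC12A3 had none. The OGFOD1 start, at 56451554, lay within the RPB1 region assigned to NUDT21 in both cell types, so RPB1 at its start was not limited to KO cells. For pSer2 OGFOD1 was at 5.79 in WT and 5.56 in KO cells. Within 1 Mb of the cluster 20 genes had RPB1 regions in both lists, with a median ratio of 0.632. Of these, 11 of 20 were at least 1.5-fold lower and 0 higher, where 36.1% and 2.68% of all genes were. For pSer2 it was 15 genes with a median of 0.845 and a lowest ratio of 0.709. Of these, 0 were lower by that much, where 11.7% of all genes were. The 2 of 4 metallothionein genes that were lower, at 0.653 and 0.661, passed the 1.5-fold limit narrowly, and relative to the median ratio of all genes 0 of 4 did.

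The genes of zinc and copper handling form the pathway around the metallothioneins, and 28 were listed. Of these, 26 had an RPB1 region in WT and 24 in KO cells, and 24 had a pSer2 region in WT and 23 in KO cells. Over the 24 with RPB1 regions in both lists the median ratio was 0.725, near the 0.742 of all genes. Of these, 8 were at least 1.5-fold lower and 1 higher, where 36.1% and 2.68% of all genes were. For pSer2 it was 0.891 over 23 genes, with 4 lower and 2 higher, where 11.7% and 5.71% of all genes were. MTF1, the zinc sensor that drives the metallothionein genes, was at 46.6 in WT and 37.4 in KO cells for RPB1, a ratio of 0.803, and at 6.97 and 5.96 for pSer2. SLC30A1, the zinc exporter of the plasma membrane and another MTF1 target, was at 42.2 and 39.8 for RPB1, a ratio of 0.943. Its pSer2 value was 8.25 in WT and 4.18 in KO cells, a ratio of 0.507. At SLC30A1 the ratio was lower for pSer2 than for RPB1, and so it was at MT2A. At MT1E, MT1G and MT1X it was lower for RPB1, as was the median of all genes, with 0.742 for RPB1 and 0.936 for pSer2.

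A promoter region in one cell type alone was found at 4 genes of the list. SLC39A9, a zinc importer, had an RPB1 promoter region of 5.75-fold in WT cells and none in KO cells. For pSer2 the genes were SLC30A5, a zinc transporter of the secretory pathway, ATP7A, a copper exporting pump, and CCS, the copper chaperone of superoxide dismutase, each with promoter regions in WT cells alone. At SLC30A5 and ATP7A the highest pSer2 value of any region differed little, 5.13 and 4.89 for SLC30A5 and 6.86 and 6.83 for ATP7A. At CCS the pSer2 value was 3.46 in WT cells, and no region of either antibody was listed in KO cells. Among the metallothionein genes, each gene with a promoter region in WT cells had one in KO cells for the same antibody. How many of all genes had a promoter region in 1 cell type alone was not counted, so neither result has a background. Of the 16428 genes named in any list, 86.2% had an RPB1 region of any class in WT and 81.9% in KO cells. For pSer2 these shares were 77.6% and 69.6%.

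The 5 genes whose percentiles over the 4 lists were most like the median of the 8 members were DNAJC17, THTPA, LRR1, TRIP4 and AP4E1. The likeness was a Euclidean distance between 4 percentiles, from 5.33 for DNAJC17 to 6.96 for AP4E1. The member medians were 86.8 and 80.3 for RPB1 in WT and KO cells and 43.7 and 32.6 for pSer2, with 0 entered where a gene had no region. For pSer2 no member stood near these medians. Of the 8 members 4 had a pSer2 region, the lowest at 87.5 in WT and 65.2 in KO cells, and the rest were entered as 0. The 5 genes were therefore like the median, and for pSer2 they were not like any single member.

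The libraries were checked against the labelled cells. Of 12 hepatocyte genes, 11 had an RPB1 region in WT cells and 9 in KO cells, and 12 and 11 had a pSer2 region. PTPRC, CD3E, COL1A1, COL3A1, DCN, CDH5 and VWF, which mark blood, fibroblast and endothelial cells, had none in the 4 lists, while LYZ, PDGFRB and PECAM1 had some. PTPN6, which encodes SHP-1, still had RPB1 regions, at 24.0 in WT and 17.2 in KO cells, and a guide that cuts within an exon need not remove polymerase, so this does not check the knockout. The numbers of reads are not given in the lists, so the depth behind each value is unknown.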

How the data were processed

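RPB1 and pSer2-RPB1 ChIP-seq of SHP-1 WT and KO HepG2 cells, 1 library each, was analysed from the deposited region lists. Groups came from the labels, and the 2 input libraries were not analysed here. The authors used Trimmomatic on the single-end 50-base reads, BWA for alignment (hg38) and MACS2 for narrow peaks, with the matching input as background. Their versions are not given in the sources used here. For each region the deposited lists hold a ratio (the fold enrichment at its summit), p and q as −log10 values, and the position, class and nearest gene that the authors annotated. MACS2 scales for depth and input but not for the efficiency of a precipitation. A further deposited table for RPB1 holds the authors' own csaw comparison of KO with WT, with p-values and numbers of windows, and was not used.

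The members and lists were chosen with earlier results of these data known. Regions were taken by the assigned symbol, ranked within their list, and each gene was represented by its highest region. The KO to WT ratio was read beside the same ratio over all genes, and 1.5-fold either way was counted, also relative to the median ratio. With 1 library per group no test was made. Overlap needed 1 bp. Shares carry 95% Wilson intervals, which cover counting error only, and depth is unknown. Start sites and exons came from MANE Select transcripts of GENCODE release 44, whose MT2A transcript starts elsewhere than the one in the lists. Uniqueness was an exact count of 50-base words on both strands of hg38. Promoters came from RefSeq (GRCh38.p14), and 3 of 8 members had one. The members were all named, and of the zinc and copper list MTF1, SLC30A1 and genes with a promoter region in 1 cell type alone were named with values, as were the 5 genes with the most similar percentiles. Python 3.11.15, pandas 2.3.3, NumPy 2.4.6 and matplotlib 3.10.9 were used. The overlap and 50-base word steps were tested on simulated data, and the ratio step on WT values lowered by a known amount. Alternatives were a −log10 q-value of at least 5, regions by position or within 3 kb of a start, reciprocal overlap of 50%, ranks by q-value or among genes, 36-base words and the whole promoter window.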

Additional observations from a re-analysis of the deposited data

Results flagged for a closer look

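MT1X was singled out because its RPB1 and pSer2 values moved in opposite directions between the cells. The KO to WT ratio of its highest fold enrichment was 0.638 for RPB1 and 1.08 for pSer2. The other 3 genes with both antibodies, MT2A, MT1E and MT1G, had ratios below 1 for both. Over all genes the median ratio was 0.742 for RPB1 and 0.936 for pSer2. A ratio as low as that of MT1X was found in 30.7% of genes for RPB1 and in 70.1% for pSer2. How many of all genes moved in opposite directions was not counted, so the pattern is not shown to be particular to MT1X. The difference between the antibodies was not tested, since there was 1 library for each.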

How the results depend on the processing

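The counts of genes at least 1.5-fold lower in KO cells depended on the scaling: relative to the median ratio of all genes, 1 metallothionein gene was lower for RPB1 (5 as deposited) and 0 for pSer2 (2 as deposited). When regions had to reach 5 on the −log10 q scale, those of the RPB1 list of KO cells went from 10 to 6, and MT1A was no longer listed there. The median percentile of the highest region of each gene was 97.5 for RPB1 in WT cells, 96.9 for pSer2 in WT cells and 95.4 for pSer2 in KO cells when ranked by q-value, against 95.9, 94.1 and 90.7 by fold enrichment. Among the highest region of each gene it was 87.0 and 73.6 for RPB1 and 69.7 and 61.0 for pSer2 in WT and KO cells. With 36-base words 96.5% of positions were unique. By position, MT1H was counted through the region of MT1G, which gave 7 genes for RPB1 and 5 for pSer2. With reciprocal overlap the members' share of overlapped WT regions was 58.3% for RPB1 and 50.0% for pSer2, within the intervals of the main shares. These and the by-position counts are among 51 alternatives for summary values that moved by less than 1.5 times or stayed within their intervals, as did 22 further ones for single-gene ratios and for the share of all genes lower in KO cells. The promoter class of the lists ends 1000 bp from a start, so a narrower class gave no other value. No paired analysis was possible because there was 1 library per antibody and cell type, and for the same reason no library could be left out. Low fold enrichments near the calling threshold rest on few reads, and the depth is unknown.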

Other observations

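Of the zinc and copper list, SLC39A4, SLC39A1 and USF1 had higher values in KO cells with both antibodies, and they were picked out after their values were seen. SLC39A4, the zinc importer of the intestine and a member of the ZIP family, had a highest RPB1 value of 51.1-fold in WT and 119-fold without SHP-1, a ratio of 2.33. Its pSer2 value was 11.1-fold in WT and 27.2-fold in KO cells, a ratio of 2.45. For RPB1, 2.68% of all genes, and for pSer2, 5.71%, were at least 1.5-fold higher in KO cells. SLC39A1, another zinc importer, was at 12.5 and 16.5 for RPB1, a ratio of 1.32, and at 7.72 and 12.1 for pSer2, a ratio of 1.57. USF1, a transcription factor that also binds metallothionein promoters, had ratios of 1.10 for RPB1 and 1.26 for pSer2, both under 1.5-fold. SLC39A14, the ZIP family importer of zinc and iron in liver, was the strongest gene of the list in WT cells for both antibodies, at 91.1-fold for RPB1 and 31.1-fold for pSer2, with KO to WT ratios of 0.734 and 0.516. Each of these values comes from 1 library.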
